A study of Arabidopsis thaliana with 141 samples.

Results

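3MBiP is the kinase inhibitor of this series, which was given to wild-type seedlings and to seedlings of the genotypes labelled impk36 and impk4. What it does in wild-type plants is the question here, since such effects lie off its intended target. The comparison is 3MBiP without any stimulus against its solvent, DMSO, in wild-type Arabidopsis thaliana seedlings, and its members are the 6 RNA-seq libraries that the labels give to these groups, out of 141 libraries in the series. The groups were taken from the labels alone and no measured value was used to choose them.

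The treated group, WT_3MBiP, has 3 libraries of 7-day-old wild-type seedlings given 10 uM 3MBiP, and the control group, WT_DMSO, has 3 libraries of the same age and genotype given 0.1% DMSO. All 6 belong to the seedling set that the sample titles call B1, which holds 39 libraries in 13 groups. Seedlings grew in liquid MS medium with sucrose, 8 in each ml of a well, and the labels give 15 min of pretreatment with inhibitor or solvent. Stimulated groups of the set were then kept for 1 h, and for the unstimulated groups the total time in the compound is not stated. The labels do not say whether replicates came from separate cultures, so p-values measure the spread between these libraries only.

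As background, MAP kinase cascades pass signals from receptors at the cell surface to transcription factors, and MPK3, MPK4 and MPK6 are the members that pattern receptors, wounding and hormones activate in Arabidopsis. Auxin is perceived by the TIR1 and AFB receptors, which remove Aux/IAA repressors and free the auxin response factors; the Aux/IAA genes and the GH3 genes, which conjugate auxin to amino acids, are themselves quickly induced. Abscisic acid acts through PYL receptors, PP2C phosphatases and bZIP factors that bind ACGTG-containing elements, and ethylene acts through ETR receptors, CTR1 and EIN3-type factors.

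The 6 libraries held 17.59 M to 29.3 M reads assigned to genes (M, mega), against 13.9 M to 40.4 M over the whole series. Pearson correlations of log2 CPM (read counts per M reads of the library) were 0.9916 to 0.9939 within a group and 0.9854 to 0.9887 between groups, and the first principal component, with 45.4% of the variance, separated the groups. Shoot and leaf markers summed to 12434 to 13295 CPM in the 3MBiP libraries and 12542 to 13790 CPM in the DMSO libraries, and 0 of 15 were called. Root markers summed to 3051 to 3596 CPM with 3MBiP and 2813 to 3087 CPM with DMSO, and 3 of 18 were higher and 2 lower. Whether a shift in the share of root tissue has a part in any result was not tested. In whole seedlings, fewer cells of a type and less RNA per cell cannot be told apart.

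Of 21211 genes tested, 1834 (8.65%) differed between 3MBiP and DMSO at an adjusted p under 0.05 in edgeR's quasi-likelihood test, 979 (4.62%) higher and 855 (4.03%) lower with 3MBiP. Most of the changes were small: the median log2 fold change was 0.50 among the higher genes and 0.46 in size among the lower ones, and 180 genes (0.849%) were higher and 106 (0.500%) lower by at least 2-fold, 1.35% together. Of the 1834 genes 1783 had no overlap between the groups, which is 8.41% of the genes tested; 5657 genes (26.7%) had none whether called or not. The median over all tested genes was -0.000477. Fewer genes, 1095 and 1186, passed when DMSO replicate 2 or 3 was left out. At an unadjusted p under 0.05 there were 4467 genes. Below, "higher" and "lower" as counts mean this adjusted threshold, and the 4.62% and 4.03% are the shares that any list is read against.

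Of the kinases that the series is about, MPK3 fell slightly. MPK3 (AT3G45640) was lower with 3MBiP, with 66.3, 59.5 and 55.8 CPM in the 3MBiP libraries and 79.6, 89.1 and 83.8 CPM in the DMSO libraries (log2 fold change -0.48 ± 0.10, adjusted p = 0.000874), and the groups did not overlap. MPK4 (AT4G01370) had 61.4, 60.9 and 62.5 CPM in the 3MBiP libraries and 59.2, 65.8 and 71.6 CPM in the DMSO libraries, which overlap (log2 fold change -0.09 ± 0.06, adjusted p = 0.45). MPK6 (AT2G43790) had 59.6, 57.1 and 59.1 CPM in the 3MBiP libraries and 56.6, 56.8 and 56.5 CPM in the DMSO libraries (log2 fold change 0.05 ± 0.07, adjusted p = 0.756), a difference that did not pass the test although every 3MBiP library lay above every DMSO library. Among 40 tested members of the cascade, MPK3 was the only one called, and the other 39 had log2 fold changes of -1.42 to 1.15 with adjusted p of 0.055 to 1.00.

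Some early auxin genes were higher with 3MBiP, and most members of their families did not pass the test. GH3.3 (AT2G23170, chromosome 2, 9863855 to 9866562 in TAIR10.1), an enzyme that joins auxin to amino acids, had 65.5, 71.7 and 56.1 CPM in the 3MBiP libraries and 7.34, 4.23 and 5.72 CPM in the DMSO libraries (log2 fold change 3.49 ± 0.25, adjusted p = 1.4e-10). WES1 (AT4G27260), also called GH3.5, had 37.8, 40.4 and 37.0 CPM in the 3MBiP libraries and 23.0, 24.4 and 22.4 CPM in the DMSO libraries (log2 fold change 0.72 ± 0.08, adjusted p = 2.06e-07). DFL1 (AT5G54510), also called GH3.6, had 22.2, 27.1 and 23.8 CPM in the 3MBiP libraries and 16.7, 17 and 16.7 CPM in the DMSO libraries (log2 fold change 0.53 ± 0.11, adjusted p = 0.00151). In all 3 genes each 3MBiP library lay well above each DMSO library. These were 3 of 10 tested GH3 genes, and 0 were lower; the list median was -0.10, and the other 7 did not pass the test.

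Among Aux/IAA repressors 9 of 25 were higher and 0 lower, with a list median of 0.17. IAA2 (AT3G23030) had 61.4, 58.5 and 55.7 CPM in the 3MBiP libraries and 27.9, 29.3 and 28.1 CPM in the DMSO libraries (log2 fold change 1.04 ± 0.09, adjusted p = 2.1e-10), with the 3MBiP libraries close to one another. IAA29 (AT4G32280) was scarce and had 2.95, 2.24 and 2.32 CPM in the 3MBiP libraries and 0.268, 1.07 and 0.797 CPM in the DMSO libraries (log2 fold change 1.77 ± 0.39, adjusted p = 0.00249). IAA1, IAA8, IAA9, IAA13, IAA16, AXR3 (IAA17) and ATAUX2-11 (IAA4) rose by log2 values of 0.22 to 0.67, and AXR3 (adjusted p = 0.0418) lost its call without replicate 2 of 3MBiP (adjusted p = 0.23) and without any other library except replicate 1 of 3MBiP. The auxin-induced homeodomain gene HAT2 (AT5G47370) had 73.3, 63.0 and 70.2 CPM in the 3MBiP libraries and 26.7, 25.5 and 21.3 CPM in the DMSO libraries (log2 fold change 1.5 ± 0.11, adjusted p = 9.63e-11).

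Genes upstream of the response were mixed. The receptor TIR1 (AT3G62980) was higher, with 97.6, 98.3 and 99.3 CPM in the 3MBiP libraries and 80.6, 77.7 and 81.7 CPM in the DMSO libraries (log2 fold change 0.30 ± 0.05, adjusted p = 3.24e-05), while its relative AFB2 was lower (log2 fold change -0.21 ± 0.07, adjusted p = 0.0369), a call that ended when any of 4 libraries was left out. Of 23 auxin carriers and PIN regulators tested, 3 were higher and 1, AT1G76520, was lower (log2 fold change -0.31), with a list median of 0.06. Among the higher ones, the efflux carrier PIN3 (AT1G70940) had 166, 149 and 148 CPM in the 3MBiP libraries and 92.0, 97.4 and 94.3 CPM in the DMSO libraries (log2 fold change 0.71 ± 0.08, adjusted p = 1.8e-07). Enzymes that make auxin went the other way: TAA1 was lower by a log2 fold change of -0.43 ± 0.09 and YUC6 of -0.54 ± 0.13, 2 of 9 tested, with 0 higher; the YUC6 call ended without replicate 2 of DMSO (adjusted p = 0.0528). The SAUR genes, a large family of small auxin-linked proteins, split into 7 higher and 6 lower of 54 (3 lower without replicate 3 of 3MBiP), and among response factors ARF19 (0.42 ± 0.10) and ARF9 were higher and ARF6 was lower, 3 of 15. ARF9 and ARF6 lost their calls without replicates 1 or 2 of 3MBiP and without replicates 2 or 3 of DMSO.

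**Figure D1:**
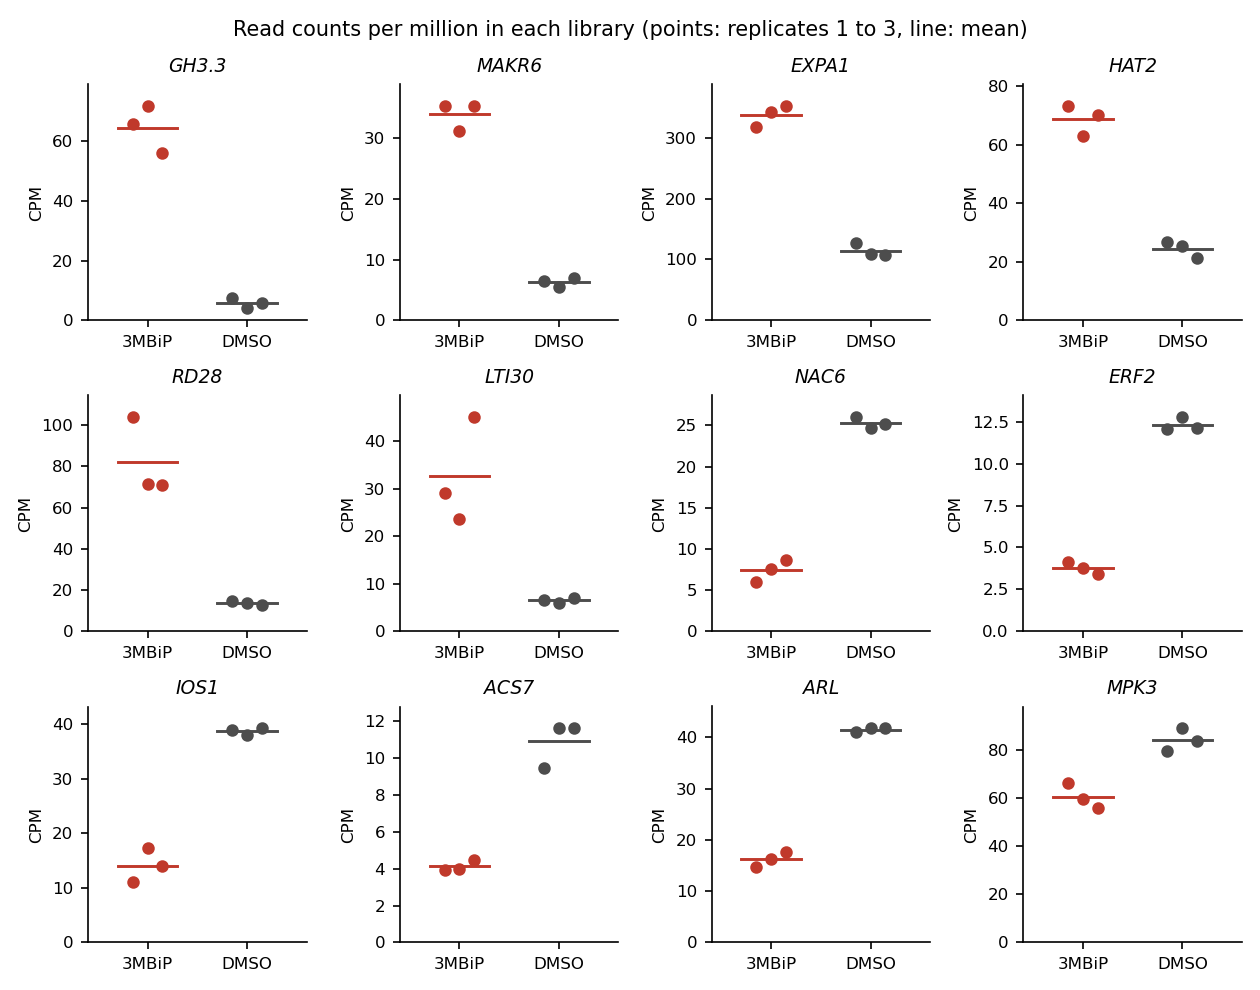
Read counts as CPM (y axis, from 0) in each of the 3 3MBiP libraries (left, red) and 3 DMSO libraries (right, grey) for 12 genes, with lines at the means. In each panel the groups do not overlap: 6 genes, such as GH3.3 and EXPA1, are higher with 3MBiP and 6, such as NAC6 and MPK3, are lower.

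The bases before the start of GH3.3 and WES1 are shown because the TGTCTC letters to which auxin response factors are known to bind occur there; capitals mark them. The sequences are the 250 bases upstream of the annotated start in TAIR10.1, written on the gene's strand, chr2:9866563-9866812 (minus strand) for GH3.3 and chr4:13653329-13653578 (plus strand) for WES1.
GH3.3: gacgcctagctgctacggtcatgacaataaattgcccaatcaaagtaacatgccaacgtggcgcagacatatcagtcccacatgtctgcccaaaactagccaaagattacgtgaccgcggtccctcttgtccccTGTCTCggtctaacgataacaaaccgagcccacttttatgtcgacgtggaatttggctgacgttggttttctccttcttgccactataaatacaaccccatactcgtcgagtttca
WES1: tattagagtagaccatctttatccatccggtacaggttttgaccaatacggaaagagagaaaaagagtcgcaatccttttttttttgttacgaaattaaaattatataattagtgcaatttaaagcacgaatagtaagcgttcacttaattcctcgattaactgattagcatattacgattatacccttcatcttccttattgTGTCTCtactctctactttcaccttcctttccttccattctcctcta

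The TGTCTC letters start 116 bases before the start of GH3.3 and 47 bases before that of WES1, on the gene's own strand in both, and DFL1 has none in this window. Searched on both strands, TGTCTC was present before 104 of 978 higher genes (10.6%), 102 of 855 lower genes (11.9%) and 2267 of 21082 tested genes with a window (10.8%). TGTCGG was present before 6.03% of higher genes, 3.74% of lower genes and 4.53% of all. TGTCNN, which includes both, was present before 75.8% of higher genes, 76.5% of lower genes and 75.0% of all.

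Alpha expansins, which loosen cell walls during growth, were higher in 10 of 18 tested and lower in 1, with a list median of 0.35. EXPA1 (AT1G69530, chromosome 1, 26141726 to 26143538 in TAIR10.1) had 317, 342 and 352 CPM in the 3MBiP libraries and 127, 109 and 107 CPM in the DMSO libraries (log2 fold change 1.56 ± 0.11, adjusted p = 2.12e-11). EXPA10 (AT1G26770) had 48.3, 46.1 and 46.5 CPM in the 3MBiP libraries and 24.9, 23.47 and 22.6 CPM in the DMSO libraries (log2 fold change 0.99 ± 0.09, adjusted p = 3.71e-09). EXPA18, EXPA9, EXPA11, EXPA15, EXPA12, EXPA7, EXPA16 and EXP3 rose by log2 values of 0.34 to 1.23; EXPA7 and EXPA16 lost their calls when any of several libraries, replicate 2 of 3MBiP among them, was left out. EXPA7 and EXPA18, which are root hair expansins, are also on the root marker list. The exception was EXPA14, with 6.80, 6.93 and 6.97 CPM in the 3MBiP libraries and 12.4, 9.18 and 10.6 CPM in the DMSO libraries (log2 fold change -0.63 ± 0.15, adjusted p = 0.00357).

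Xyloglucan enzymes of the XTH family, which also act on the wall, did not follow. Of 28 tested, 1 (XTH14) was higher and 7 were lower, among them XTH24 (AT4G30270), with 44.4, 36.3 and 40.6 CPM in the 3MBiP libraries and 55.9, 66.7 and 61.2 CPM in the DMSO libraries (log2 fold change -0.60 ± 0.13, adjusted p = 0.00175). The 7 became 3 without replicate 2 of 3MBiP or replicate 1 of DMSO, 4 without replicate 3 of 3MBiP or replicates 2 or 3 of DMSO, and 5 without replicate 1 of 3MBiP. Of 20 tested genes on a list of shade and PIF growth targets, 3 were lower and 2 higher, with a list median of 0.05. The light-signalling factors PIF3 (-0.80 ± 0.15) and PIF7 (-0.63 ± 0.14) were among the lower ones in log2 terms. HAT2 and HFR1 were the higher ones. No type-A response regulator of cytokinin signalling (0 of 9) or enzyme of gibberellin synthesis and breakdown (0 of 12) was called.

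Several water channels were higher with 3MBiP. Aquaporins were tallied as a list only after their values had been seen, and 10 of 27 were higher and 2 lower, with a list median of 0.13. RD28 (AT2G37180), the plasma membrane channel PIP2;3, had 104, 71.7 and 71.2 CPM in the 3MBiP libraries and 14.6, 13.8 and 13.0 CPM in the DMSO libraries (log2 fold change 2.58 ± 0.34, adjusted p = 6.12e-06). PIP2A (AT3G53420) had 485, 426 and 415 CPM in the 3MBiP libraries and 192, 188 and 189 CPM in the DMSO libraries (log2 fold change 1.22 ± 0.13, adjusted p = 7.45e-08). The vacuolar channel TIP2;2 (AT4G17340) had 369, 244 and 271 CPM in the 3MBiP libraries and 126, 115 and 111 CPM in the DMSO libraries (log2 fold change 1.33 ± 0.24, adjusted p = 0.000449). In each of these genes replicate 1 of 3MBiP was the highest library and the groups were far apart. PIP1A, PIP1B, PIP1C, PIP2B, PIP2;5, GAMMA-TIP and TIP2;3 also rose, by log2 values of 0.36 to 1.28; PIP1C lost its call without any other library than replicate 1 of DMSO. The 2 that fell were NLM1 (-0.99 ± 0.20) and the boric acid channel NIP5;1 (-0.51 ± 0.13), which lost its call without replicate 3 of 3MBiP (adjusted p = 0.0963). Close paralogs such as the PIP2 channels RD28, PIP2A and PIP2B may share reads that the counting dropped or assigned to the wrong copy. So may tandem gene groups such as the AT1G51790 to AT1G51850 kinases.

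Many genes of dehydration and abscisic acid were higher as well, but unevenly between libraries. Of 26 tested, 12 were higher and 1 was lower, with a list median of 0.98. LTI30 (AT3G50970), a dehydrin, had 29.2, 23.7 and 45.1 CPM in the 3MBiP libraries and 6.59, 6.02 and 6.96 CPM in the DMSO libraries (log2 fold change 2.33 ± 0.26, adjusted p = 3.92e-07). COR47 (AT1G20440), another dehydrin, had 708, 534 and 598 CPM in the 3MBiP libraries and 269, 276 and 245 CPM in the DMSO libraries (log2 fold change 1.22 ± 0.15, adjusted p = 1.21e-06). The NAC factor RD26 (AT4G27410) had 16.6, 12.0 and 25.2 CPM in the 3MBiP libraries and 5.20, 5.88 and 4.64 CPM in the DMSO libraries (log2 fold change 1.81 ± 0.35, adjusted p = 0.000842). ABF3 (AT4G34000), a bZIP factor of the pathway, had 51.4, 36.9 and 52.6 CPM in the 3MBiP libraries and 21.7, 23.2 and 20.7 CPM in the DMSO libraries (log2 fold change 1.11 ± 0.23, adjusted p = 0.00163). In these 4 genes replicate 2 of 3MBiP was the lowest treated library and still above every DMSO library.

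Some calls depended on which treated libraries were counted. HAI1 (AT5G59220), a PP2C phosphatase that dampens the pathway, had 7.30, 2.49 and 9.83 CPM in the 3MBiP libraries and 0.589, 1.02 and 0.833 CPM in the DMSO libraries (log2 fold change 3.05 ± 0.88, adjusted p = 0.0275); its adjusted p was 0.0541 to 0.153 without any 1 library other than replicate 2 of 3MBiP. LEA4-5 (AT5G06760), a late embryogenesis abundant protein outside the list, had 6.71, 0.548 and 11.2 CPM in the 3MBiP libraries and 0.107, 0 and 0.217 CPM in the DMSO libraries (log2 fold change 5.73 ± 1.31, adjusted p = 0.00462), and its adjusted p was 0.0564 without replicate 3. LTI65 (AT5G52300), also called RD29B, had 2.90, 0.399 and 5.31 CPM in the 3MBiP libraries and 0.214, 0.194 and 0.507 CPM in the DMSO libraries, so that replicate 2 lay inside the DMSO range (log2 fold change 3.23 ± 0.82, adjusted p = 0.0113, and 0.168 without replicate 3). GolS2 (AT1G56600), a galactinol synthase outside the list that was named after its values were seen, had 301 reads over the 3MBiP libraries and 1 over the DMSO libraries. All 12 higher members of the list had their lowest treated value in replicate 2. Over all 180 genes that rose at least 2-fold, replicate 2 was the treated library nearest to DMSO in 102 (56.7%), against 304 of the 979 higher genes (31.1%). The count of higher list members was 14 without replicate 2 and 7 without replicate 3.

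The 250 bases before LTI65 (chr5:21236771-21237020, plus strand of TAIR10.1) are given because they carry 4 copies of ACGTG, the core of the abscisic acid response element, in capitals.
LTI65: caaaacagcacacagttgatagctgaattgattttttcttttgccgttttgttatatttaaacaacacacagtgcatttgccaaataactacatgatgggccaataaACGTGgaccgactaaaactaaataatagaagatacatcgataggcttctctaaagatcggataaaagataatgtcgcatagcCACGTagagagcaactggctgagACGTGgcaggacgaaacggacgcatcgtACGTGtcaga

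The copies start 143, 61, 38 and 10 bases before the annotated start, the second of them on the opposite strand, so that it reads CACGT on the strand printed. These letters were searched after the expression values had been seen. On both strands they were in the windows of 312 of 978 higher genes (31.9%), 73 of 180 higher by at least 2-fold (40.6%), 190 of 855 lower genes (22.2%) and 24.1% of all tested genes, and 7 of the 12 higher dehydration genes had them.

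**Figure D2:**
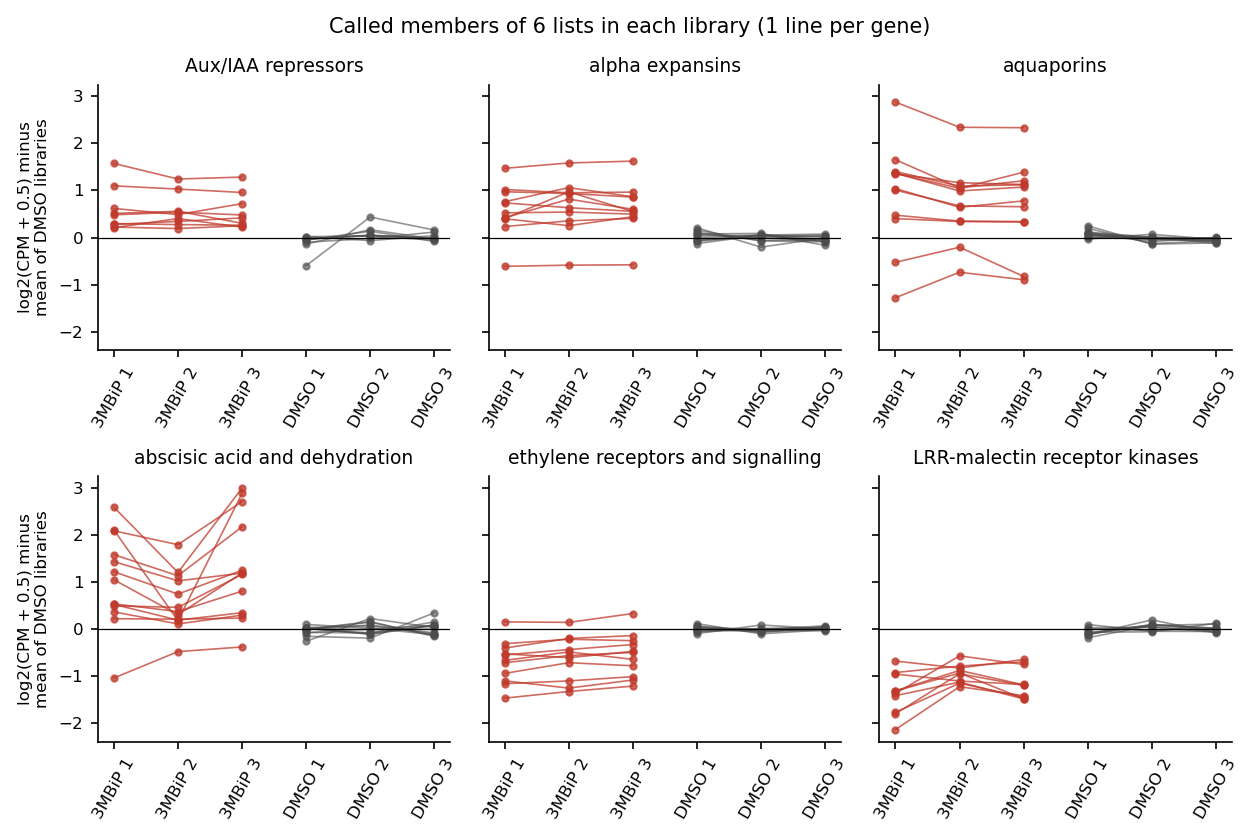
Each line is 1 called gene of 6 lists. The y axis is log2(CPM + 0.5) minus the mean of the DMSO libraries, for 3MBiP replicates 1 to 3 (left, red) and DMSO replicates 1 to 3 (right, grey). The dehydration genes dip in 3MBiP replicate 2, and the Aux/IAA and expansin genes run more level over the 3MBiP libraries. Of the 10 lower ethylene genes, 7 lie nearest to DMSO in 3MBiP replicate 3 and 0 in replicate 1.

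Some transcription factors of stress families rose. ERF53 (AT2G20880), an AP2/ERF factor, had 23.1, 11.9 and 13.8 CPM in the 3MBiP libraries and 0.803, 0.583 and 0.543 CPM in the DMSO libraries (log2 fold change 4.68 ± 0.52, adjusted p = 4.18e-07); on its list of DREB and CBF factors 3 of 14 were higher and 1, TINY2, was lower, a call that ended without any library other than replicate 1 of 3MBiP. ATAF1 (AT1G01720), a NAC factor of stress responses, had 31.9, 23.4 and 30.6 CPM in the 3MBiP libraries and 9.21, 9.09 and 9.31 CPM in the DMSO libraries (log2 fold change 1.64 ± 0.14, adjusted p = 1.92e-09). HSFA6B (AT3G22830), a heat shock factor, had 17, 5.73 and 22.6 CPM in the 3MBiP libraries and 1.66, 1.70 and 1.38 CPM in the DMSO libraries (log2 fold change 3.31 ± 0.78, adjusted p = 0.00612), again lowest in replicate 2 among the treated libraries; it stands outside the heat shock list, of which 2 of 15 genes were lower and 0 higher. Of 17 NAC factors tested 7 were higher and 1 lower, and the 7 became 4 without replicate 3 of 3MBiP. The lower member was NAC6 (AT5G39610, chromosome 5, 15858398 to 15859911 in TAIR10.1), also called ORE1, a regulator of leaf senescence, with 5.94, 7.63 and 8.68 CPM in the 3MBiP libraries and 26.0, 24.7 and 25.1 CPM in the DMSO libraries (log2 fold change -1.75 ± 0.15, adjusted p = 5.74e-10); it fell while 7 other members of the list rose.

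Some detoxification genes rose. Of 26 tau glutathione transferases, enzymes that attach glutathione to foreign compounds, 10 were higher and 1 lower, with a list median of 0.35; the count was 6 without replicate 3 of 3MBiP. GSTU1 (AT2G29490) had 15.6, 16.5 and 14.6 CPM in the 3MBiP libraries and 7.39, 8.55 and 7.61 CPM in the DMSO libraries (log2 fold change 0.99 ± 0.10, adjusted p = 2.22e-08). GSTU25 (AT1G17180) had 4.40, 4.78 and 6.33 CPM in the 3MBiP libraries and 1.45, 1.99 and 2.07 CPM in the DMSO libraries (log2 fold change 1.49 ± 0.30, adjusted p = 0.000922). GSTU27 (AT3G43800) was lower, with 24.1, 27.9 and 20.8 CPM in the 3MBiP libraries and 39.3, 36.5 and 37.3 CPM in the DMSO libraries (log2 fold change -0.64 ± 0.10, adjusted p = 2.49e-05). In the phi class of the same enzymes 0 of 12 were called, and their log2 fold changes spanned -0.61 to 1.38.

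On a wider list of genes known to respond to foreign chemicals, 13 of 32 were higher and 1 lower. The glucosyltransferase UGT73B4 (AT2G15490) had 3.81, 5.23 and 7.38 CPM in the 3MBiP libraries and 1.12, 1.31 and 0.761 CPM in the DMSO libraries (log2 fold change 2.42 ± 0.32, adjusted p = 4.85e-06). Its relative UGT73B1 (AT4G34138) had 61.6, 71.2 and 74.0 CPM in the 3MBiP libraries and 37.4, 35.5 and 34.9 CPM in the DMSO libraries (log2 fold change 0.94 ± 0.09, adjusted p = 1.15e-08). The oxophytodienoate reductase OPR2 (0.78 ± 0.10), the alternative oxidase AOX1A and the alkenal reductase AER (0.34 ± 0.06) were higher in log2 terms. The cytochrome P450 CYP81D11 was scarce, with 1.86, 2.44 and 3.66 CPM in the 3MBiP libraries and 0.589, 0.534 and 0.507 CPM in the DMSO libraries, and its call ended without replicate 3 of 3MBiP (adjusted p = 0.074).

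Many ethylene genes were lower. In the list of receptors, signalling parts and direct responders, 10 of 19 were lower and 1, the transcription factor EIL1, was higher (lost without replicate 3 of 3MBiP or replicates 2 or 3 of DMSO), with a list median of -0.32. ARL (AT2G44080), the ARGOS-LIKE protein that promotes organ growth, had 14.7, 16.3 and 17.7 CPM in the 3MBiP libraries and 41.0, 41.8 and 41.7 CPM in the DMSO libraries (log2 fold change -1.35 ± 0.11, adjusted p = 3.31e-10). Its relative ARGOS (AT3G59900) had 5.71, 5.08 and 5.79 CPM in the 3MBiP libraries and 12.3, 12.7 and 13.4 CPM in the DMSO libraries (log2 fold change -1.21 ± 0.18, adjusted p = 1.56e-05). The RAV-type repressor TEM1 (AT1G25560), also called EDF1, had 42.1, 43.9 and 46.8 CPM in the 3MBiP libraries and 95.0, 93.4 and 95.3 CPM in the DMSO libraries (log2 fold change -1.09 ± 0.09, adjusted p = 1.39e-10). In each case the groups lay far apart.

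RAV1 (-0.61 ± 0.09), RAV2 (-0.82 ± 0.09) and EDF3 (-0.56 ± 0.11), which complete the EDF group with TEM1, were lower as well in log2 terms. The receptor ETR2 (AT3G23150) had 25.3, 28.1 and 29.5 CPM in the 3MBiP libraries and 39, 44.3 and 42.0 CPM in the DMSO libraries (log2 fold change -0.60 ± 0.11, adjusted p = 0.000271). EBF2, an F-box protein that removes EIN3 (-0.43 ± 0.08), and the kinase CTR1 (-0.26 ± 0.06) were lower, and the receptor ERS1 was at the limit (adjusted p = 0.0497). The ERS1 call ended without any library other than replicate 3 of 3MBiP. Among enzymes of ethylene synthesis, ACS7 (AT4G26200) had 3.9, 3.99 and 4.49 CPM in the 3MBiP libraries and 9.48, 11.6 and 11.6 CPM in the DMSO libraries (log2 fold change -1.40 ± 0.16, adjusted p = 3.43e-07), and EFE (AT1G05010), the ACC oxidase ACO4, had 285, 258 and 262 CPM in the 3MBiP libraries and 351, 378 and 375 CPM in the DMSO libraries (log2 fold change -0.45 ± 0.07, adjusted p = 3.57e-05); these were 2 lower and 0 higher of 9. ERF2 (AT5G47220), an ethylene response factor, had 4.13, 3.79 and 3.40 CPM in the 3MBiP libraries and 12.1, 12.8 and 12.1 CPM in the DMSO libraries (log2 fold change -1.72 ± 0.22, adjusted p = 2.89e-06).

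Some receptors and markers of pattern-triggered immunity were lower in seedlings that had met no elicitor. Of 25 genes on that list 6 were lower and 1 higher, with a median of -0.38. FLS2 (AT5G46330), the receptor of bacterial flagellin, had 31.5, 31.3 and 42.4 CPM in the 3MBiP libraries and 49.4, 52.7 and 57.2 CPM in the DMSO libraries (log2 fold change -0.59 ± 0.14, adjusted p = 0.00563). The receptor EFR (-0.51 ± 0.13, lost without replicate 1 of 3MBiP or replicate 2 of DMSO) and the transcription factors WRKY29 (AT4G23550) (log2 fold change -0.83 ± 0.09, adjusted p = 9.19e-08) and WRKY53 (-1.10 ± 0.22) were also lower. FRK1 (AT2G19190), a receptor kinase widely used as a marker of the response, had 0.726, 0.997 and 0.668 CPM in the 3MBiP libraries and 2.73, 2.87 and 2.68 CPM in the DMSO libraries (log2 fold change -1.82 ± 0.44, adjusted p = 0.00759, and 0.055 without replicate 3 of 3MBiP). The gene that rose was YLS9 (AT2G35980), also called NHL10, with 5.13, 6.43 and 5.73 CPM in the 3MBiP libraries and 3.05, 2.14 and 1.92 CPM in the DMSO libraries (log2 fold change 1.3 ± 0.20, adjusted p = 1.62e-05).

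Receptor kinases with leucine-rich repeats and a malectin-like domain were lower too, and were made a list after their values had been seen: 10 of 15 were lower and 0 higher. IOS1 (AT1G51800), which is known to prime pattern-triggered immunity, had 11.1, 17.2 and 13.9 CPM in the 3MBiP libraries and 38.9, 38 and 39.3 CPM in the DMSO libraries (log2 fold change -1.47 ± 0.20, adjusted p = 1.34e-05). AT3G46280 had 7.71, 14.9 and 13.0 CPM in the 3MBiP libraries and 36.2, 36.4 and 33.7 CPM in the DMSO libraries (log2 fold change -1.57 ± 0.23, adjusted p = 3.2e-05). AT1G51790 had 9.03, 16.6 and 13.9 CPM in the 3MBiP libraries and 29.9, 34.9 and 33.0 CPM in the DMSO libraries (log2 fold change -1.31 ± 0.19, adjusted p = 2.69e-05). In these 3 genes replicate 1 of 3MBiP was the lowest library and replicate 2 the highest treated one, with the DMSO libraries close together above both. The other members that fell were AT1G51805, AT1G51820, AT1G51850, AT1G05700, AT3G46400, MEE39 and FRK1. Of cysteine-rich receptor kinases, a list also made afterwards, 9 of 40 were lower and 1 higher, with CRK12 (-1.25 ± 0.17), CRK5 (-1.08 ± 0.16) and CRK28 (-0.67 ± 0.10) among the lower ones.

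The bases before FRK1 (chr2:8329945-8330194, minus strand) and IOS1 (chr1:19213822-19214071, plus strand) are shown with TTGACC and TTGACT, the W-box letters that WRKY factors are known to bind, in capitals.
FRK1: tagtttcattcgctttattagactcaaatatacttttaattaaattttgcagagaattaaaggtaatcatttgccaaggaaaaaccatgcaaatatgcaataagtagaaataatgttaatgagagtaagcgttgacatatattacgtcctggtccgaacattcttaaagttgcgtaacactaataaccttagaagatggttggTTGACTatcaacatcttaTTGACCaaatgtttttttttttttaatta
IOS1: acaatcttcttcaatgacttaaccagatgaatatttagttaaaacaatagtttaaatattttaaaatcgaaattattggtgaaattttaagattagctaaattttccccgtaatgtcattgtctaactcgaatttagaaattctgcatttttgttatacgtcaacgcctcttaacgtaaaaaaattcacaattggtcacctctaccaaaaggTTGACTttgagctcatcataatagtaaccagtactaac

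FRK1 has the letters at 47 and 29 bases before its start and IOS1 at 38 bases. They too were searched after the values had been seen. On both strands TTGACC or TTGACT was in the windows of 327 of 855 lower genes (38.2%), 50 of 106 lower by at least 2-fold (47.2%), 259 of 978 higher genes (26.5%) and 28.5% of all tested genes, and before 9 of the 10 lower malectin-like receptor kinases. GCCGCC, a letter string bound by ethylene response factors, was in 0.936% of the windows of lower genes, 1.12% of those of higher genes and 2.03% of all.

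Some other defence genes were lower. The glucosinolate hydrolase PEN2 (AT2G44490) had 159.8, 168 and 170.2 CPM in the 3MBiP libraries and 245, 259 and 253 CPM in the DMSO libraries (log2 fold change -0.61 ± 0.06, adjusted p = 1.68e-08), and the transporter PEN3 (-0.43 ± 0.08) and the regulator MYB51 (-0.81 ± 0.15) moved the same way, so that 4 of 19 genes of indole glucosinolates and camalexin were lower and 1 was higher. In the salicylic acid list 4 of 20 were lower and 0 higher, among them SARD1 (-1.27 ± 0.24) and SAG101 (-0.67 ± 0.10); without replicate 2 of 3MBiP or replicates 2 or 3 of DMSO the 4 became 2. In the jasmonate list 3 of 25 were lower, with JAZ6 (-0.85 ± 0.14) first by adjusted p, and 1, the jasmonate-inactivating enzyme CYP94B3 (1.90 ± 0.40), was higher. The calcium sensors TCH3 (-0.62 ± 0.11), CML42 and CML11 were lower, 3 of 17 touch and calcium genes.

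**Figure D3:**
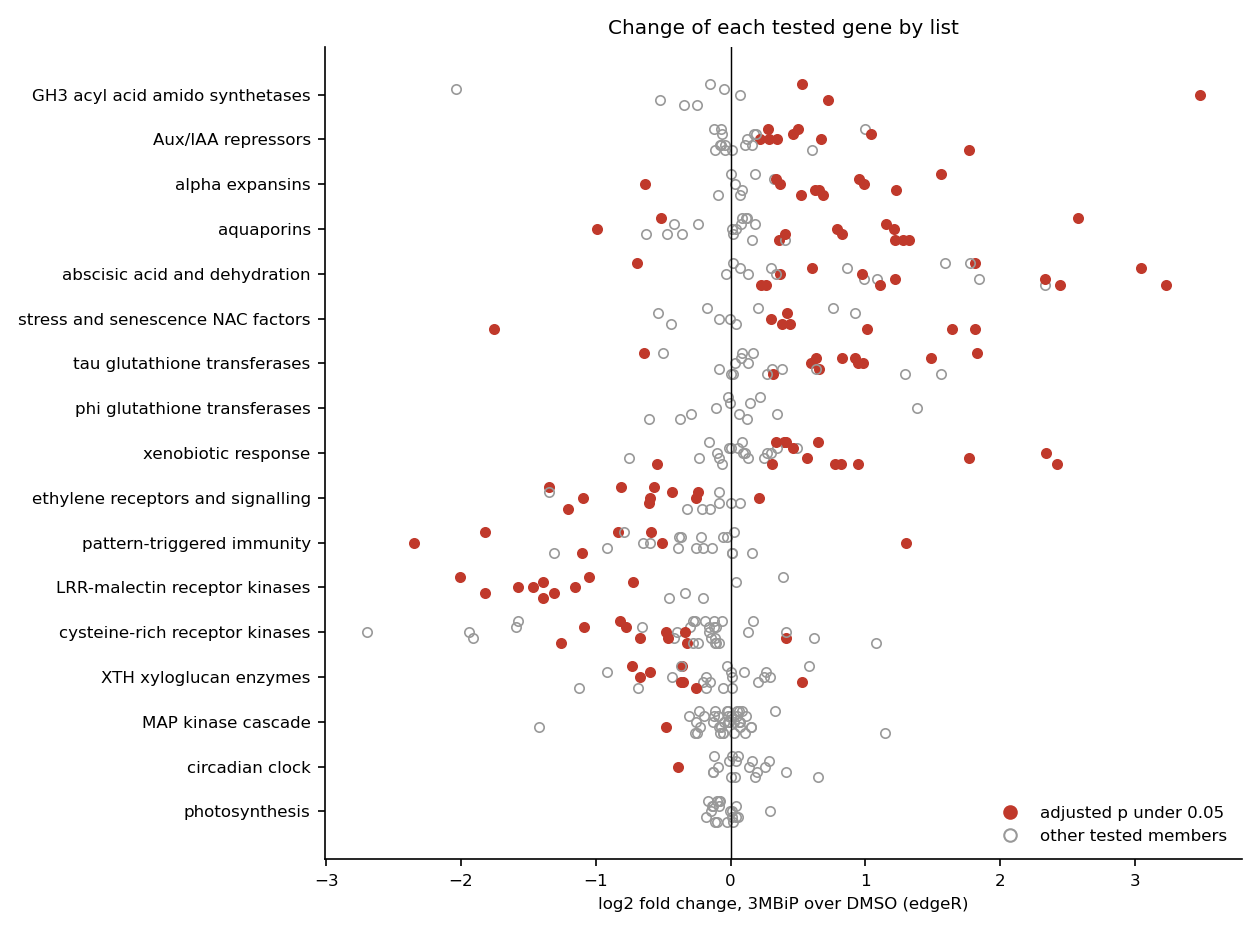
The x axis is the log2 fold change of 3MBiP over DMSO and each point is 1 tested gene of the list named at the left; filled points passed an adjusted p under 0.05. Filled points lie mostly to the right for auxin, expansin, aquaporin, dehydration, NAC, tau transferase and xenobiotic genes and mostly to the left for ethylene, immunity, receptor kinase and XTH genes, and photosynthesis and phi transferases have none.

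Several lists gave no call or few calls, and in lists this short that cannot be told apart from the 8.65% called over all genes. None of 20 photosynthesis genes was called, with log2 fold changes of -0.18 to 0.29. Of 19 clock genes 1 (5.26%) was lower, against 4.03% of all genes. It was TCP11 (log2 fold change -0.39 ± 0.11), and its call ended without any library other than replicate 1 of 3MBiP and replicate 3 of DMSO. In the list of cell division genes 1 was higher and 1 lower of 22, 4.55% each and near the shares over all genes. Of 16 flower and pollen markers 7 passed the filter on low counts and 0 were called.

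Genes outside these lists were among the largest changes and the smallest adjusted p. MAKR6 (AT5G52900, chromosome 5, 21452442 to 21453980 in TAIR10.1), of the family of membrane-associated kinase regulators, had 35.2, 31.1 and 35.2 CPM in the 3MBiP libraries and 6.43, 5.49 and 6.88 CPM in the DMSO libraries (log2 fold change 2.43 ± 0.14, adjusted p = 3.11e-13). AT3G13310 had 30.9, 33.0 and 31.6 CPM in the 3MBiP libraries and 7.50, 7.97 and 7.86 CPM in the DMSO libraries (log2 fold change 2.03 ± 0.10, adjusted p = 7.03e-16), the smallest adjusted p of all genes. SIS (AT5G02020), a salt-induced serine-rich protein, had 12.5, 8.62 and 12.1 CPM in the 3MBiP libraries and 1.87, 0.972 and 1.16 CPM in the DMSO libraries (log2 fold change 3.09 ± 0.26, adjusted p = 7.39e-10). Among the falls, DREB26 (AT1G21910), an AP2/ERF factor, had 6.08, 5.83 and 5.79 CPM in the 3MBiP libraries and 16.8, 15.8 and 15.7 CPM in the DMSO libraries (log2 fold change -1.45 ± 0.15, adjusted p = 3.08e-08). NRT1.8 (AT4G21680), a nitrate transporter, had 1.90, 2.69 and 2.45 CPM in the 3MBiP libraries and 6.75, 6.12 and 6.01 CPM in the DMSO libraries (log2 fold change -1.41 ± 0.24, adjusted p = 0.000132). AT2G36690 had 8.75, 12.4 and 10.2 CPM in the 3MBiP libraries and 31.6, 38.2 and 34.5 CPM in the DMSO libraries (log2 fold change -1.74 ± 0.14, adjusted p = 2.59e-10).

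Only set B1 has seedlings with DMSO, so the control side of this comparison rests on 3 libraries, and levels in other unstimulated groups show where they lie. Levels were scaled within each set, so values from different sets are set side by side without a test. GH3.3 averaged 64.4 CPM in WT_3MBiP of B1, 62.7 CPM in impk4 and 34.1 CPM in impk36 seedlings of B1 with 3MBiP, and 52.4, 158 and 35.3 CPM in the WT 3MBiP groups of sets B2, B3 and B4, against 5.76 CPM with DMSO. In wild-type seedlings at 0 min of the flg22 time course, which had water and no inhibitor, it averaged 7.16 CPM, close to the DMSO group. The 15 highest-ranked and the 15 lowest-ranked changes, by fold among called genes of at least 5 CPM without overlap, were all beyond the DMSO range on the same side in both mutant groups of B1 and in B2. All of these groups are set against the same 3 DMSO libraries that ranked the genes, and the time-course seedlings without inhibitor were beyond that range on the same side for 11 of the 15 higher and 11 of the 15 lower genes. In B3 this held for 13 of the 15 higher and 5 of the 15 lower genes. SIS and HAI1 were the exceptions among the higher ones. Among the lower ones they were ERF2, AT3G46280, IOS1, AT5G60760, AT2G02680, NRT1.8, ACS7, AT1G05700, AT1G77530 and ARL. In B3, with 3MBiP, IOS1 averaged 46.7 CPM and EXPA1 103 CPM, against 38.8 and 114 CPM in the DMSO group of B1.

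The time-course seedlings did not always resemble the DMSO group. MAKR6 averaged 29.7 CPM there, against 33.8 CPM with 3MBiP and 6.27 CPM with DMSO in B1. HAI1 averaged 7.36 CPM there, against 6.54 CPM with 3MBiP and 0.814 CPM with DMSO, and RD28 averaged 139.8 CPM there, against 82.3 CPM with 3MBiP and 13.8 CPM with DMSO. NAC6 averaged 16.7 CPM there, between 7.42 CPM with 3MBiP and 25.3 CPM with DMSO. ERF53 (0.462 CPM), AT3G13310 (10.2 CPM) and IOS1 (34.0 CPM) lay near their DMSO values of 0.643, 7.78 and 38.8 CPM. Over all called genes the time-course mean was nearer to the 3MBiP than to the DMSO mean of B1 for 620 of 979 higher genes (63.3%) and 566 of 855 lower genes (66.2%). The same shares were 79.1% and 87.7% in B2, 66.0% and 25.6% in B3 and 74.9% and 84.2% in B4, all with 3MBiP. Both groups of the comparison belong to B1, so a difference between sets enters only where other sets are set beside them. For the time-course seedlings, which had neither DMSO nor inhibitor, a difference between sets and an effect of DMSO itself cannot be told apart. With a single DMSO group, a trait of its 3 libraries cannot be told apart from an effect of the inhibitor in these genes.

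**Figure D4:**
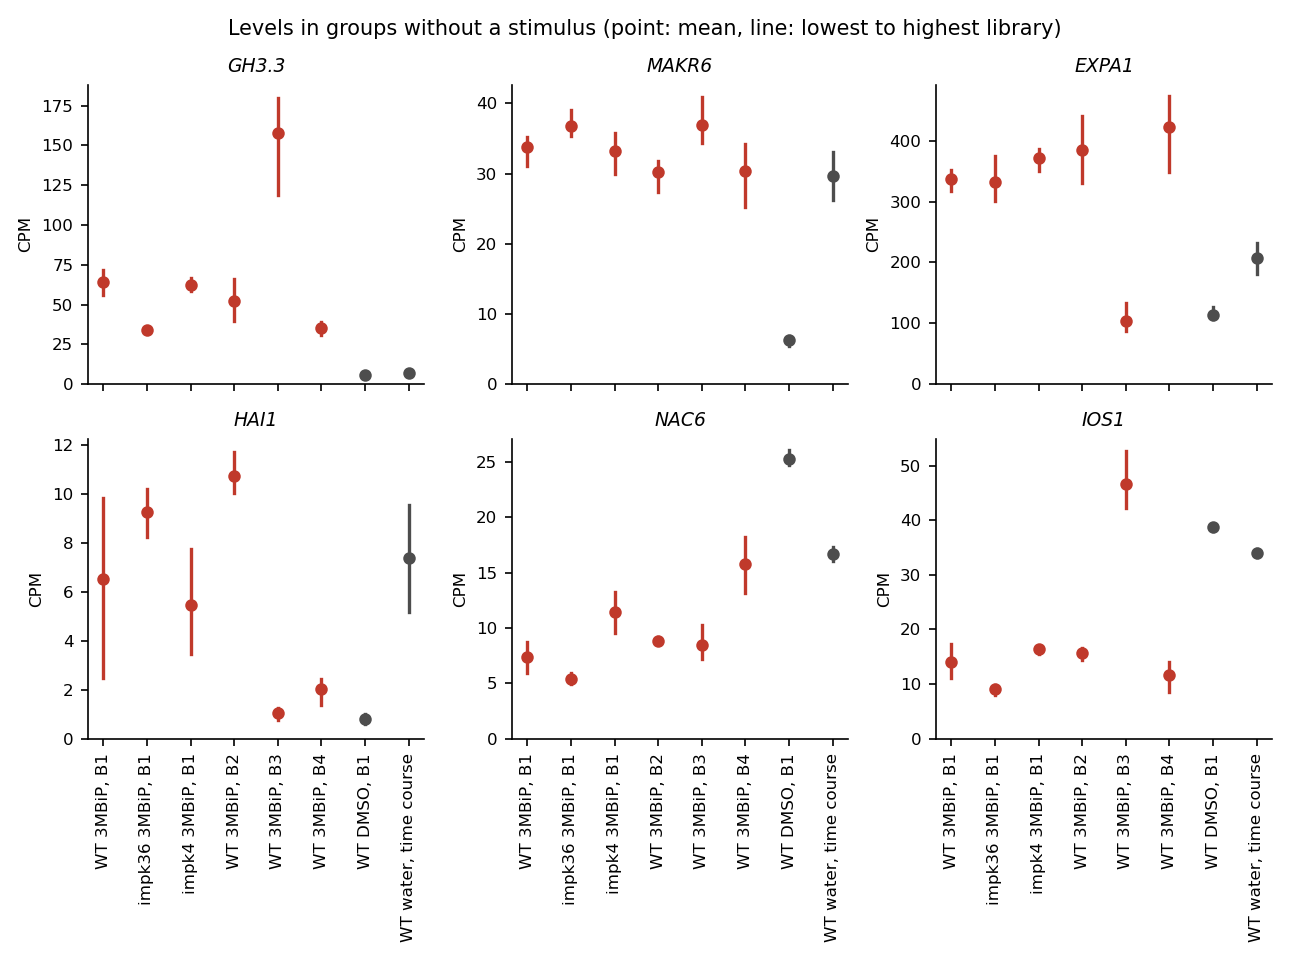
Mean CPM (y axis, from 0) of 6 genes in 8 groups without a stimulus, 6 with 3MBiP (red) and 2 without (grey). Points are means and lines run from the lowest to the highest library. GH3.3 is low in both groups without inhibitor, while MAKR6 is low with DMSO only, at 6.27 CPM.

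The inhibitor genes were then looked up in comparisons that share no library with this one. After 60 min of 100 nM flg22 against 0 min in wild-type seedlings (2 libraries each), 6817 of 20871 tested genes (32.7%) were higher and 7007 (33.6%) lower. The time course has no group kept for 60 min without flg22, so flg22 and the time passed cannot be told apart. Below, "with flg22" means this comparison. Of 851 inhibitor-lower genes tested there, 470 (55.2%) were higher with flg22 and 227 (26.7%) lower, and the 470 are 6.89% of the flg22-higher genes. Of the genes lower by at least 2-fold with 3MBiP, 72 of 102 (70.6%) were higher with flg22. Of 966 inhibitor-higher genes, 430 (44.5%) were lower with flg22 and 259 (26.8%) higher.

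By list, all 10 lower ethylene genes and all 6 lower immunity genes were higher with flg22, as were 9 of the 10 lower malectin-like kinases, 8 of 9 lower cysteine-rich kinases and both ethylene synthesis genes. The immunity list holds receptors and markers of the response to elicitors such as flg22, so its rise there follows from how it was made. The malectin-like and cysteine-rich kinase lists were made after their values had been seen. List members that were not called with 3MBiP were not counted here, so these counts show nothing particular to the called ones. FRK1 rose there by 8.98 ± 0.17 on the log2 scale (adjusted p = 2.2e-14), IOS1 by 5.14 ± 0.07 (adjusted p = 2.65e-26) and MPK3 by 3.34 ± 0.07 (adjusted p = 1.2e-23). Of the 10 higher aquaporins 9 were lower with flg22, and of the 12 higher dehydration genes 9 were lower and 0 higher. The 10 higher alpha expansins were divided, with 3 higher and 4 lower, among them EXPA1 with a log2 fold change of -3.51 ± 0.13 (adjusted p = 8.18e-10). GH3.3, higher with 3MBiP, was higher with flg22 as well (2.04 ± 0.12, adjusted p = 1.84e-13).

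After wounding and 1 h of incubation, in set B2 with 3MBiP in both groups (3 libraries each), 6101 of 21223 genes (28.7%) were higher and 5268 (24.8%) lower. Of 978 inhibitor-higher genes tested there, 536 (54.8%) were higher after wounding and 173 (17.7%) lower; these 536 are 8.79% of the wounding-higher genes. Among them were all 10 higher tau glutathione transferases, all 7 higher NAC factors and all 3 higher GH3 genes. Other lists went differently: of the 10 higher alpha expansins 1 was higher and 6 were lower after wounding, of the 7 higher SAUR genes 1 was higher and 4 were lower, and of the 12 higher dehydration genes 5 were higher and 2 lower. Of 849 inhibitor-lower genes 344 (40.5%) were higher and 296 (34.9%) lower. All 6 lower immunity genes, 9 of the 10 lower ethylene genes, 7 of 9 lower cysteine-rich kinases and 7 of the 9 lower malectin-like kinases tested there were higher after wounding. Here too, list members that were not called with 3MBiP were not counted. NAC6 rose by 1.73 ± 0.09 and ERF2 by 4.05 ± 0.11 on the log2 scale after wounding (adjusted p = 2.25e-19 and 1.7e-25).

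**Figure D5:**
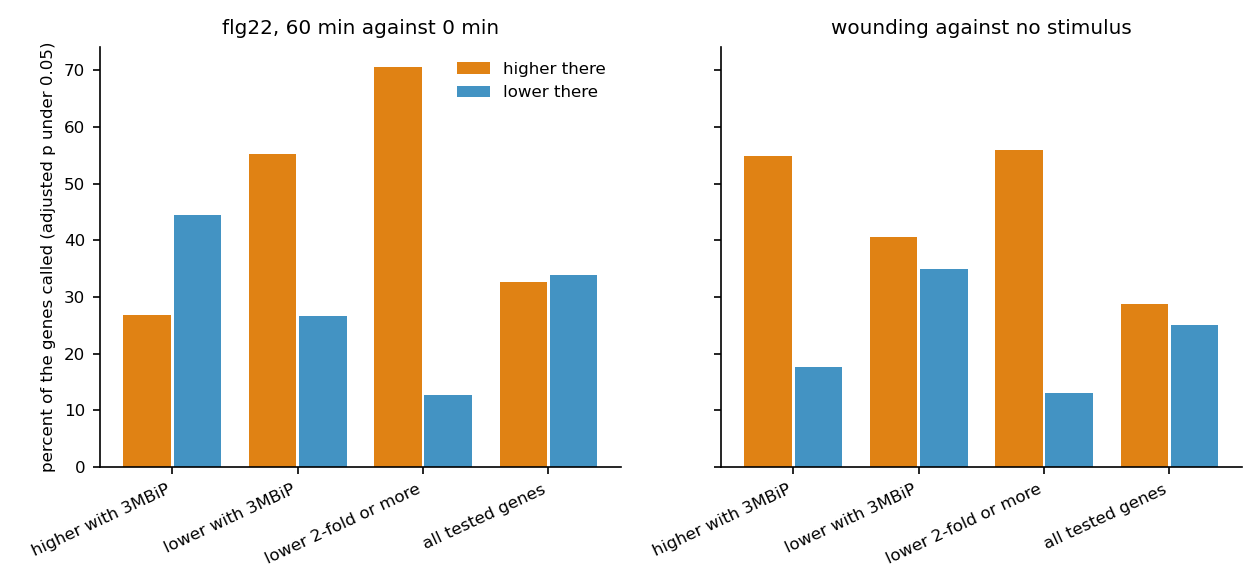
Bars give the percent of genes that were higher (orange) or lower (blue) with flg22 for 60 min (left panel) and after wounding (right panel), for genes higher with 3MBiP, lower with 3MBiP, lower by at least 2-fold, and all genes tested in both. The tallest bar is the 70.6% of the 2-fold lower genes that were higher with flg22, beside 32.7% of all genes.

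A second exposure to the compound in the series is a spray of 100 uM 3MBiP on 4-week-old plants of the genotype labelled impk4, with shoots taken at 3 h and compared with a 1% DMSO spray (3 libraries each). Dose, time, age, tissue and genotype all differ from the seedlings, so the values are set side by side only. There 54 of 20806 genes (0.260%) were higher and 4 (0.0192%) lower, 0.279% together. These 58 genes became 26 to 37 without any 1 library other than replicate 2 of 3MBiP. Of 915 inhibitor-higher seedling genes tested in both, 17 (1.86%) were higher in adult shoots, which is 31.5% of the 54, and 0 were lower. Of 812 inhibitor-lower genes 2 were higher and 2 lower.

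Members of the auxin, expansin and aquaporin lists were among the 17 genes higher in both. MAKR6 had log2 fold changes of 2.43 ± 0.14 in seedlings and 2.94 ± 0.14 in adult shoots (adjusted p = 2.99e-13 there). HAT2 had 1.5 ± 0.11 in seedlings and 1.45 ± 0.13 in adult shoots (adjusted p = 7.93e-08). PIN3 had 0.71 ± 0.08 in seedlings and 0.97 ± 0.09 in adult shoots (adjusted p = 2.01e-07). IAA1, IAA9, the SAUR genes AT4G34760 and AT4G38860, the expansin EXPA16 and the aquaporins PIP1A, PIP1B, PIP2;5 and TIP2;2 were higher in both as well, with AT1G67900, AT2G32560, AT5G05840, AT5G62280 and AT5G66580. ARGOS and PMT5 were lower in both, with ARGOS at -1.21 ± 0.18 in seedlings and -1.60 ± 0.35 in adult shoots (adjusted p = 0.0375). GH3.3, which rose in seedlings, had a log2 fold change of -0.08 ± 0.41 in adult shoots (adjusted p = 0.986). Of the 12 higher dehydration genes and the 10 higher tau glutathione transferases, 0 were called there. With 0.279% of all genes called in adult shoots, 0 calls among so few genes do not show that they stayed unchanged there.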

How the data were processed

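RNA-seq measured whole 7-day-old seedlings, with adult shoots of the same series used for one comparison of values. The deposited values are unnormalised read counts for each locus, with a file for each library; the submitters' processing notes name TopHat, HTSeq and TAIR10, and the strand setting of the counting is not given in the sources used here, so reads of overlapping and antisense genes cannot be told apart. Rows that name no gene were left out of library sizes and tests; reads without a feature were 0.829% to 2.30% in the 141 libraries. Of 32678 loci, 31912 matched the TAIR10.1 annotation of RefSeq, which gave symbols, positions and the 250 bases before each start.

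Counts of the 39 libraries of set B1 were fitted with edgeR 4.0.16 in R 4.3.3 (filterByExpr by group, TMM factors, robust quasi-likelihood test), and p-values were adjusted by Benjamini-Hochberg over 21211 genes. All groups of the set entered the fit, which share one estimate of the spread; the common biological coefficient of variation was 0.0776. Errors beside log2 fold changes are approximate standard errors. Each is the size of the log2 fold change divided by the square root of the test's F statistic. CPM values use TMM-scaled library sizes. The flg22, wounding and adult comparisons were fitted the same way in their own sets. Alternatives were RLE and upper-quartile scaling, DESeq2 1.42.0, no filter on low counts, only the 2 groups compared, other thresholds, a replicate block and leaving out each library. The steps were tested on simulated data.

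The comparison, gene lists and tests were chosen with earlier results of these data known. Named genes were drawn from the 15 largest changes per direction among called genes of at least 5 CPM without overlap, up to 5 called members of each list by adjusted p, the 5 smallest adjusted p, and MPK3, MPK4 and MPK6, with any member of the Aux/IAA, GH3, ethylene synthesis and MAP kinase lists. Not every gene that met these rules is described. Among those left out are AT1G20070, AT5G62730, AT3G19200, FMO GS-OX4, AT4G23500 and AT4G38810, which were higher, and MSRB7 and AGP22, which were lower. Further members named to complete a count, and the aquaporin, cysteine-rich kinase and malectin-like kinase lists, were chosen after their values were seen. Replicate numbers were checked for pairing by correlating deviations from the group means.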

Additional observations from a re-analysis of the deposited data

How the results depend on the processing

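The 1834 genes became 1825 with RLE factors, 1894 with upper-quartile scaling, 1890 with DESeq2, 1623 with no filter on low counts and 2220 with only the 2 groups in the fit. They became 990 at an adjusted p under 0.01 and 120 when tested against a fold of 1.5, of which 65.8% were higher. Leaving out each library in turn gave 1095 to 1590 genes, 58.7% to 77.7% of the 1834 genes being called again, all in the same direction. With the replicate number as a block there were 2247 genes in the whole set and 2115 in the 6 libraries; the same-numbered libraries correlated at -0.011, -0.019 and 0.17, so the numbers were not taken as pairs. The adult comparison was the least settled: its 58 genes became 119 with only the 2 groups, 118 with DESeq2, 56 with the replicate block and 26 to 66 without each library. The flg22 and wounding counts of 13824 and 11369 stayed at 12099 to 14071 and 10297 to 11713 over the alternatives tried. In the seedling comparison, 224 ranked or listed genes were followed over the alternatives (220 in the fits of the 6 libraries alone), and 0 were scored as reversed. Not every gene named in the text was among them. A change of sign in a gene without a call, such as MPK4 or MPK6, is not excluded by this score. Values of single genes in the flg22, wounding and adult comparisons were not followed in this way. With 3 libraries a group, 4467 genes had an unadjusted p under 0.05, and the depth of 17.59 M to 29.3 M reads leaves genes under 1 CPM with few reads. A single DMSO group, an exposure time that is not stated and a culture of 8 seedlings in each ml of a well limit what the control stands for.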

Other observations

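Transcription factors that many stimuli induce within minutes did not move as a block: of 23 tested, 4 were higher and 6 lower with 3MBiP, with a median log2 fold change of -0.25. ERF11, an AP2/ERF repressor, was higher (1.3 ± 0.31, adjusted p = 0.00437), as was ERF4 (0.43 ± 0.08, adjusted p = 0.000206). WRKY11 (-0.65 ± 0.13, adjusted p = 0.000864), ZF3 (-0.69 ± 0.13, adjusted p = 0.000514) and WRKY60 (-0.63 ± 0.17, adjusted p = 0.0167) were lower, and WRKY60 lost its call without replicate 2 of 3MBiP (adjusted p = 0.092) and without most other libraries. All 4 higher members had their lowest treated value in replicate 2 of 3MBiP (2 were called without its replicate 1 or 3), and all 6 lower members had their highest treated value in replicate 1 (3 were called without replicate 2 of DMSO).

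Steroid hormone and lateral organ boundary genes gave few calls, in both directions. CYP90D1, an enzyme of brassinosteroid synthesis, was the 1 lower gene of 11 (-0.74 ± 0.15, adjusted p = 0.000992), and 0 were higher. On a list of brassinosteroid inactivation and targets, 2 of 8 were higher, BRH1 and BEE2, both by a log2 value of 0.38. On that list 1 was lower (-0.64). Of 23 lateral organ boundary genes tested, 1 was higher and 1 lower. That is 4.35% each, near the 4.62% and 4.03% over all genes. LBD33, a lateral organ boundary factor, was higher but rare, at 0.544, 0.598 and 0.159 CPM in the 3MBiP libraries and 0, 0.0486 and 0.0362 CPM in the DMSO libraries (3.54 ± 0.85, adjusted p = 0.00512), and LBD39, a nitrate-responsive relative, was lower (-0.39 ± 0.09, adjusted p = 0.00281). Both named nitrate transporters were lower as well, NRT1.8 (-1.41 ± 0.24, adjusted p = 0.000132) and the root marker NRT2:1 (-2.51 ± 0.69, adjusted p = 0.0163), the second of which lost its call without replicate 3 of 3MBiP (adjusted p = 0.103).

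Heat shock and chaperone genes had a median log2 fold change of -0.68, and 2 of 15 were lower and 0 higher, AT5G48570 (-0.89 ± 0.26, adjusted p = 0.0287) and HSFA7A (-0.33 ± 0.10, adjusted p = 0.0385). Both calls ended without replicate 2 of DMSO (adjusted p = 0.11 and 0.27). HSFA6B, which was higher (3.31 ± 0.78, adjusted p = 0.00612), is a member of the same factor family. RHD6, a root hair regulator, was lower (-1.02 ± 0.26, adjusted p = 0.00781) while the root hair expansins EXPA7 and EXPA18 were higher.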
